A study of Sus scrofa with 12 samples.

Results

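PLEKHA6 and PLEKHA7 are 2 of the 516 genes in the deposited table of pig heart messenger RNA. They were taken by gene symbol, and both rows were found. The table lists only genes with an unadjusted p under 0.05 for pressure overload against control in the authors' own comparison. Both genes were therefore chosen on that contrast, and their difference between the groups is given below as a description with no test. One group was 6 libraries of left ventricular pressure overload, taken after 5 weeks of overload produced by stepwise occlusion of a cuff around the ascending aorta. The other was 6 libraries of referent controls matched for age and weight. The series text counts 9 pigs with pressure overload and 6 controls. The sources used here do not give breed, sex or age. The labels name the tissue only as heart, and the treatment text attached to all 12 samples describes cuff placement and inflation, controls included. Each library has a sample title of its own. The labels do not say that each came from a separate pig, so the spread between libraries may be partly technical.

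PLEKHA5, PLEKHA6 and PLEKHA7 form a subfamily of pleckstrin homology proteins that carry WW domains, short modules that bind proline-rich partners, next to the lipid-binding pleckstrin homology domain. PLEKHA7 is a component of the adherens junction, the cadherin-based contact between neighbouring cells. In cultured epithelial cells it binds p120-catenin, holds the nectin and afadin complex at the junction through the small adaptor PDZD11, and anchors the minus ends of microtubules through CAMSAP3. It has also been reported there to recruit parts of the microRNA processing machinery. The human PLEKHA7 locus is associated with blood pressure, loss of Plekha7 in salt-sensitive rats lowers their hypertension, and in zebrafish the orthologue affects cardiac contraction. PLEKHA6 is less studied. In cultured epithelial cells it lies along the lateral membrane, binds PDZD11 as PLEKHA7 and PLEKHA5 do, and takes part in the trafficking of the copper pump ATP7A.

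In pig (Sscrofa11.1, NCBI RefSeq annotation), PLEKHA6 lies on chromosome 9 from 64876803 to 65027455, PLEKHA7 on chromosome 2 from 42081546 to 42311526, and PLEKHA5 on chromosome 5 from 53760816 to 54016979. No annotated gene overlaps PLEKHA6 or PLEKHA5. PLEKHA7 holds the long non-coding RNA LOC110259294 within its span, and the sources used here do not say whether reads were counted by strand.

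The libraries were taken to hold 9.77 to 15.9 M counted reads each (M stands for 1000000 reads), recovered from the steps between CPM values. They averaged 13.6 ± 1.33 M in pressure overload and 12.6 ± 2.11 M in controls (SD, n = 6 each). At these sizes every value of PLEKHA6, PLEKHA7 and PLEKHA5 in the 12 libraries was a whole count. The sample descriptions number the libraries in 2 runs, S01 to S06 and S10 to S15, with 3 libraries of each group in each run. The labels do not say what the gap in numbering stands for. Replicates 1 to 3 of each group belong to the first run and replicates 4 to 6 to the second.

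PLEKHA6 was lower in pressure overload. CPM (read counts scaled to 1000000 counted reads per library) of PLEKHA6 in pressure overload replicates 1 to 6 were 35.6, 34.6, 31.6, 21.6, 26.4 and 23.4, against 45.6, 53.1, 42.1, 36.3, 81.6 and 62.7 in control replicates 1 to 6. The groups did not overlap, but the gap between them was narrow, since the highest pressure overload library (replicate 1, 35.6 CPM) and the lowest control library (replicate 4, 36.3 CPM) nearly met. Across the table, the groups did not overlap in either direction for 50 of 516 genes, or 9.69%, and with pressure overload lower for 39 genes, or 7.56%. The mean was 28.9 ± 5.91 CPM in pressure overload and 53.6 ± 16.5 CPM in controls (SD, n = 6 each), 46.1% lower. In the authors' deposited table PLEKHA6 had a log2 fold change of -0.89, the 48th most negative of the table, with an unadjusted p of 1.20e-05 and an adjusted p of 0.0367. It was 1 of 6 genes with an adjusted p under 0.05, or 0.0394% of the 15235 genes that the authors tested, and 1 of 5 such genes that were lower, or 0.0328%. These values chose the gene and are not evidence apart from that choice.

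PLEKHA7 in pressure overload replicates 1 to 6 was at 49.0, 34.6, 34.8, 22.5, 44.2 and 40.0 CPM, against 83.9, 62.1, 61.7, 48.6, 54.7 and 83.8 CPM in control replicates 1 to 6. The groups overlapped by a single pair of libraries, pressure overload replicate 1 at 49.0 CPM and control replicate 4 at 48.6 CPM, so 5 of 6 pressure overload libraries lay below every control. The mean was 37.5 ± 9.19 CPM in pressure overload and 65.8 ± 14.8 CPM in controls (SD, n = 6 each), 43.0% lower. In the authors' deposited table its log2 fold change was -0.81 with an unadjusted p of 0.000374 and an adjusted p of 0.304, so it did not pass an adjusted threshold of 0.05 there. By that unadjusted p it was the 16th gene of the table and PLEKHA6 the 4th.

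PLEKHA5, the remaining WW-domain member of the subfamily, was also listed, with a smaller difference. Its CPM in pressure overload replicates 1 to 6 were 25.5, 23.3, 25.3, 14.1, 19.3 and 20.1, against 24.3, 26.7, 21.2, 29.5, 30.0 and 31.9 in control replicates 1 to 6. The groups overlapped, with 3 of 6 pressure overload libraries below the lowest control. The authors' deposited table gives it a log2 fold change of -0.36, with an unadjusted p of 0.0417 and an adjusted p of 1.0.

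**Figure D1:**
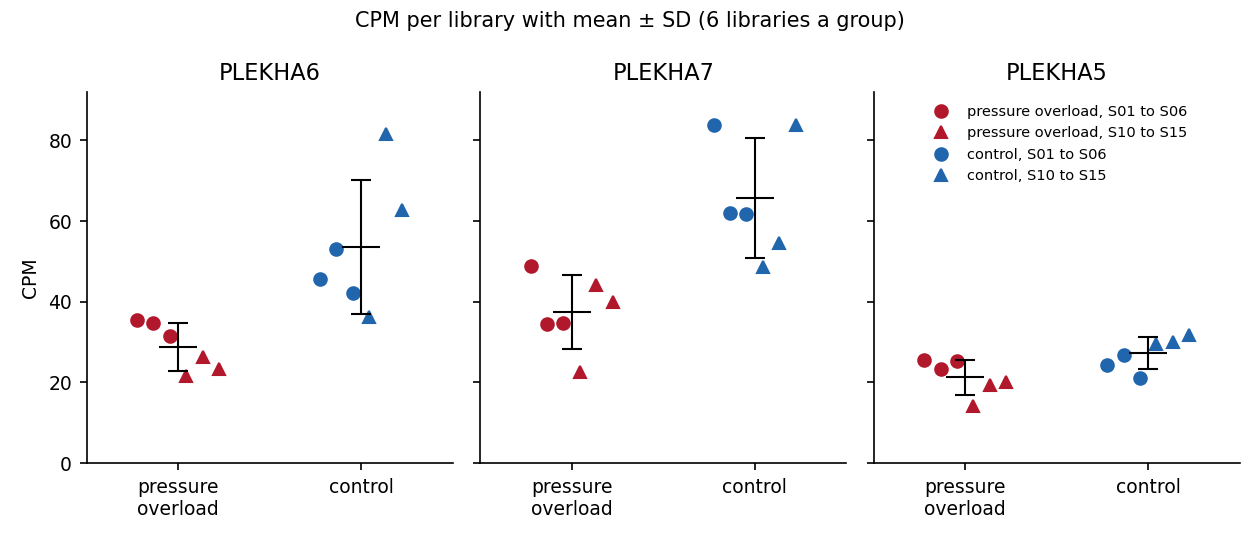
CPM of PLEKHA6, PLEKHA7 and PLEKHA5 in each library, pressure overload left of control; circles are libraries S01 to S06, triangles S10 to S15, and black bars the mean ± SD of 6 libraries. PLEKHA6 has no overlap between groups (35.6 against 36.3 CPM at the closest), PLEKHA7 overlaps by 1 pair of libraries, and PLEKHA5 overlaps among the circles but not among the triangles.

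Counting error was small beside these spreads. PLEKHA6 rested on 279 to 469 counted reads per pressure overload library and 412 to 1146 per control library, PLEKHA7 on 291 to 704 and 603 to 1057. Poisson error of single libraries was 2.95% to 5.99% for PLEKHA6 and 3.08% to 5.86% for PLEKHA7. The coefficient of variation between libraries was 20.5% in pressure overload and 30.8% in controls for PLEKHA6, and 24.5% in pressure overload and 22.5% in controls for PLEKHA7. In bulk tissue, fewer cells that make these messengers and less messenger per cell cannot be told apart.

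On the log2(CPM + 1) scale, in a limma fit over 512 genes of the table, the difference of pressure overload minus control was -0.84 ± 0.19 (SE) for PLEKHA6, -0.80 ± 0.18 for PLEKHA7 and -0.36 ± 0.16 for PLEKHA5. The median over the 512 genes was -0.41, because 375 of the 516 listed genes were lower in pressure overload. PLEKHA6 lay 0.43 and PLEKHA7 0.39 log2 units below that median, while PLEKHA5 lay 0.06 above it. Rescaling the libraries by median-of-ratios factors from the listed genes moved the median to -0.10. The difference then became -0.52 for PLEKHA6, -0.48 for PLEKHA7 and -0.04 for PLEKHA5. Relative to the median, PLEKHA6 and PLEKHA7 stayed at -0.43 and -0.39. This had to hold, since rescaling shifts all genes of a library by nearly the same amount. The factors came from genes that were mostly lower, so the upward shift of the differences is built in as well.

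The contrast was also taken within each run of library numbers. PLEKHA7 had nearly the same difference in both, -0.80 ± 0.19 (SE) among S01 to S06 and -0.81 ± 0.29 among S10 to S15, with means of 39.4 ± 8.27 CPM in pressure overload and 69.2 ± 12.7 CPM in controls in the first run, and 35.6 ± 11.5 and 62.4 ± 18.8 CPM in the second (SD, n = 3 each). PLEKHA6 differed by -0.45 ± 0.14 in the first run, where it averaged 33.9 ± 2.12 CPM in pressure overload and 46.9 ± 5.60 CPM in controls. In the second run its difference was -1.23 ± 0.28, with 23.8 ± 2.39 CPM in pressure overload and 60.2 ± 22.8 CPM in controls.

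For PLEKHA5 the difference was 0.04 ± 0.15 in the first run, opposite in sign to the whole set, and -0.75 ± 0.21 in the second. Its pressure overload libraries reached at most 20.1 CPM in the second run, where the lowest control was at 29.5 CPM. Within each run PLEKHA6 and PLEKHA7 had no overlap between groups. In that direction the groups did not overlap for 20.2% of the 516 genes in the first run, for 56.6% in the second and for 68 genes, or 13.2%, in both.

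The difference between the runs was tested with an interaction term in limma over the 512 genes. It was -0.78 ± 0.33 (SE) for PLEKHA6 (unadjusted p = 0.0340, limma; adjusted p = 0.174), -0.01 ± 0.37 for PLEKHA7 (adjusted p = 0.992) and -0.80 ± 0.24 for PLEKHA5 (unadjusted p = 0.00518, limma; adjusted p = 0.122). None of the 3 passed after adjustment, and the genes were not tested against each other. Neither did any of the 512 genes, 0% called, with 127 at an unadjusted p under 0.05, or 24.8%. The median of this term over the 512 genes was -0.33, and 364 genes had a more negative difference in the second run. PLEKHA6 and PLEKHA5 thus lay on the side of most listed genes and PLEKHA7 close to 0. The standard error of PLEKHA7 leaves room for a difference between runs as large as that median.

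**Figure D2:**
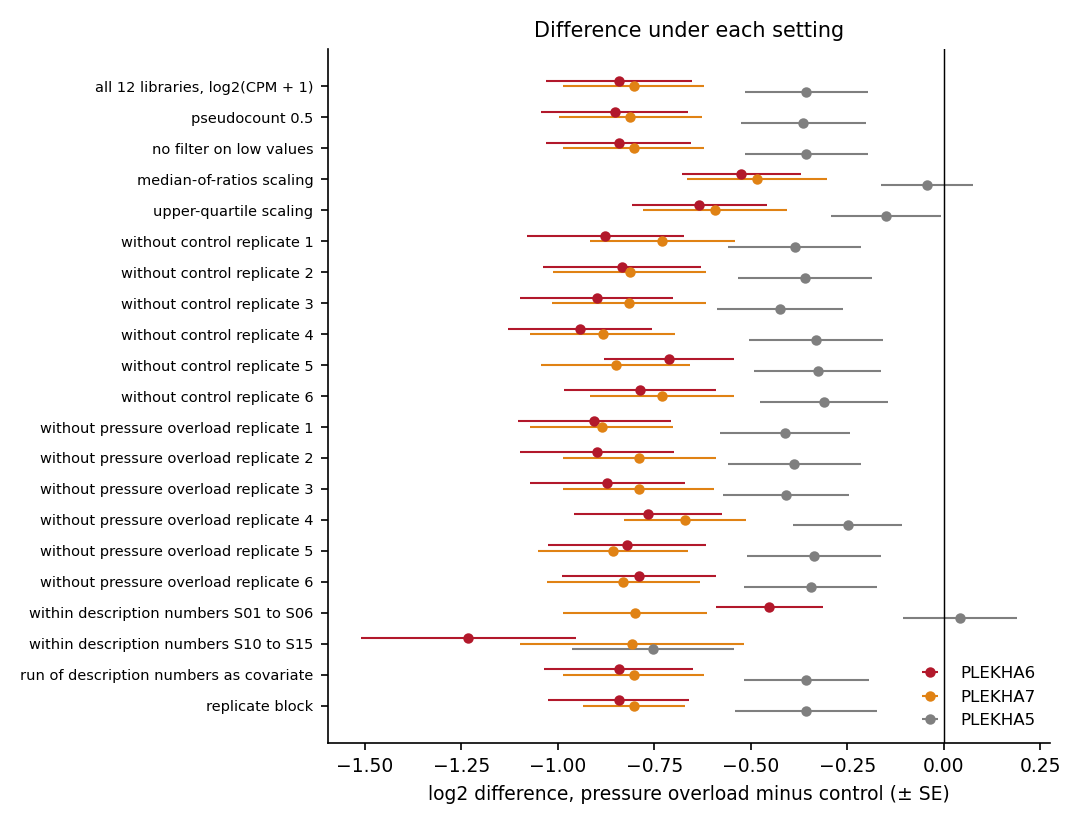
Log2 difference of pressure overload minus control (horizontal axis, ± SE from limma) for PLEKHA6, PLEKHA7 and PLEKHA5 with all 12 libraries and under each alternative. The fits with the run as covariate, with the replicate block and with no filter on low values repeat the value of all 12 libraries by design. PLEKHA6 and PLEKHA7 stay below 0 throughout, the values within S01 to S06 and within S10 to S15 are -0.45 and -1.23 for PLEKHA6, -0.80 and -0.81 for PLEKHA7 and 0.04 and -0.75 for PLEKHA5, and no difference between runs passed the adjusted test.

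The paralogues PLEKHA6 and PLEKHA7 differed by a like factor between the groups. The ratio of PLEKHA6 to PLEKHA7 CPM, which does not depend on how libraries are scaled, ran from 0.585 to 1.002 with a median of 0.817 in pressure overload and from 0.544 to 1.49 with a median of 0.747 in controls. The mean log2 ratio, taken on CPM + 1, was -0.35 ± 0.34 in pressure overload and -0.31 ± 0.48 in controls (SD, n = 6 each). The difference of -0.04 was well inside the spread between libraries. Its sign was not stable. It was 0.35 within S01 to S06 and -0.42 within S10 to S15, and 0.14 without control replicate 5.

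Control replicate 5 had the highest ratio of PLEKHA6 to PLEKHA7, 1.49, and control replicate 1 the lowest, 0.544. Control replicate 5 held the highest PLEKHA6 of all 12 libraries, 81.6 CPM, and the second lowest PLEKHA7 of the controls, 54.7 CPM. The sample title of control replicate 5 starts with V, where every other title starts with P. What this difference in titles stands for is not known here. Pressure overload replicate 4 was the lowest library for PLEKHA6, PLEKHA7 and PLEKHA5 alike.

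How the genes varied together between libraries of one group was not used to choose them, although the authors' p depends on the spread of each gene within groups. Within groups, the levels of PLEKHA6 and PLEKHA7 on the log2(CPM + 1) scale showed no correlation past the test. Pearson's r was 0.527 among the 6 pressure overload libraries (exact permutation p = 0.30, two-sided; Spearman's rho = 0.486, exact permutation p = 0.356). Among the 6 control libraries r was 0.154 (exact permutation p = 0.758; rho = 0.257, exact permutation p = 0.658). Over the deviations of all 12 libraries from their group means r was 0.313 (exact permutation p = 0.330; rank-based value 0.371, exact permutation p = 0.274). The 3 adjusted p-values (Benjamini-Hochberg over the 3 relations) were 0.495, 0.758 and 0.495.

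These correlations rested on single libraries. Without the 2 pressure overload libraries farthest from the median of PLEKHA6, replicates 1 and 4, r was -0.793 over 4 libraries, and without replicate 4 alone it was -0.057. In controls r was 0.410 without the 2 farthest libraries, replicates 4 and 5, and 0.718 without replicate 5 alone. It was -0.334 without control replicate 4 and -0.044 without control replicate 6. Over the deviations of both groups, r was 0.604 without control replicate 5 (exact permutation p = 0.0641), 0.151 without control replicate 4, 0.102 without pressure overload replicate 4 and -0.067 without the 4 farthest libraries. With 6 libraries a group, a correlation of moderate size was not detectable. Each run held 3 libraries of a group, too few for a correlation within it; over deviations from the means of group and run, r was 0.349.

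**Figure D3:**
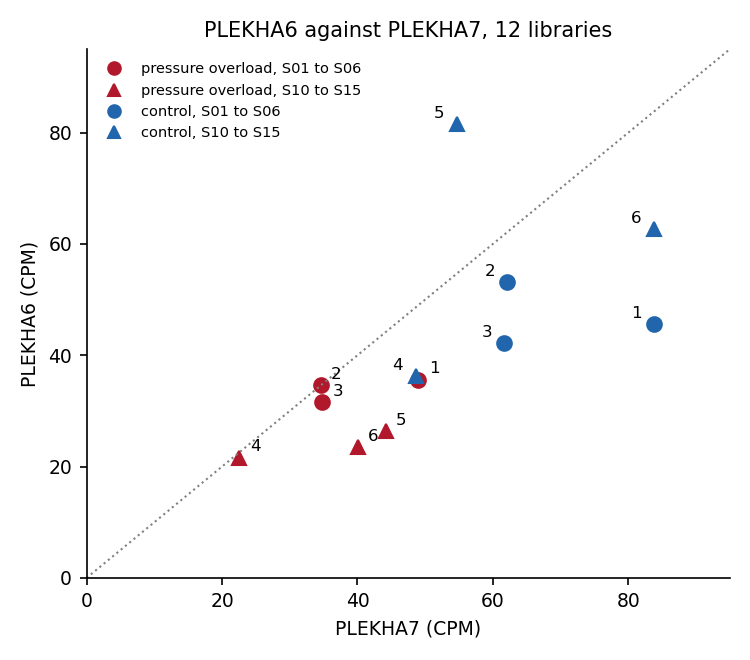
PLEKHA6 (vertical axis, CPM) against PLEKHA7 (horizontal axis, CPM) in 12 libraries, numbered by replicate; colour gives the group, circles are S01 to S06, triangles S10 to S15, and the dotted line marks equal CPM. The groups meet at pressure overload replicate 1 and control replicate 4, r within them is 0.527 in pressure overload and 0.154 in controls on the log2 scale, and control replicate 5 stands off at 81.6 CPM of PLEKHA6 and 54.7 CPM of PLEKHA7.

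Likeness of other listed genes to each paralogue was measured as Pearson's r of deviations from group means of log2(CPM + 1) over the 12 libraries, as a description. Closest to PLEKHA6 were GLB1L, a gene of the beta-galactosidase family (r = 0.882), FAM160B2 (0.869), SLFNL1 (0.866) and the zinc finger genes ZNF239 (0.860) and ZNF789 (0.846). Closest to PLEKHA7 were B4GALNT3, an N-acetylgalactosaminyltransferase (0.887), ANKS6, a protein of the primary cilium (0.873), N4BP2L1 (0.778), RAP1GAP2, a GTPase-activating protein for Rap1 (0.759), and DOCK3, a guanine nucleotide exchange factor for Rac (0.737). All 10 were lower in pressure overload in the authors' deposited table, as were 375 of its 516 genes, or 72.7%, with log2 fold changes from -1.25 for SLFNL1 to -0.34 for FAM160B2. SLFNL1 was at a low level, where counting error is larger, with 1.16 to 2.24 CPM in pressure overload and 3.27 to 7.55 CPM in controls.

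Among the 511 other genes, PLEKHA7 ranked 263rd by likeness to PLEKHA6 (r = 0.313), close to the median gene at 0.327. PLEKHA6 ranked 102nd by likeness to PLEKHA7, whose median over the other genes was 0.069. PLEKHA5 ranked 70th for PLEKHA6 (r = 0.652) and 65th for PLEKHA7 (r = 0.410). With deviations taken from the means of group and run, PLEKHA5 was at 0.319 with PLEKHA6, below the 0.349 of PLEKHA7 with PLEKHA6, and at 0.701 with PLEKHA7. These correlations share the depth and scaling of the libraries. Pressure overload replicate 4 was the lowest library of its group for 5 of the 5 genes most like each paralogue. Control replicate 5 was the highest control for 5 of the 5 genes most like PLEKHA6. After median-of-ratios scaling the median r was 0.005 for PLEKHA6 and -0.03 for PLEKHA7, r between the paralogues was 0.131, r of PLEKHA5 was 0.378 with PLEKHA6 and 0.286 with PLEKHA7, and 4 of the 5 most alike genes were kept for each.

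**Figure D4:**
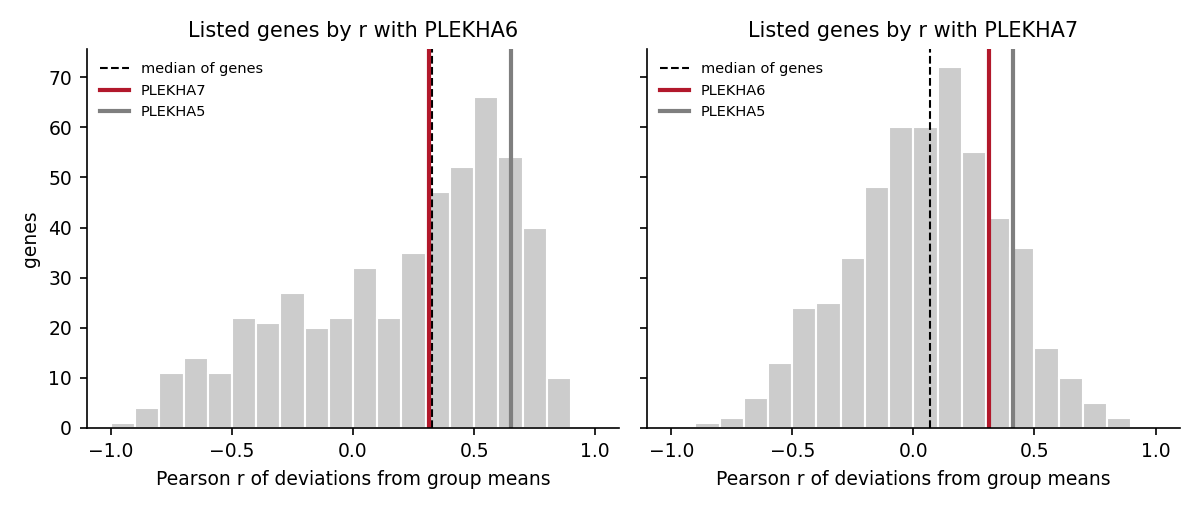
Number of listed genes (vertical axis) by Pearson's r of deviations from group means over 12 libraries (horizontal axis) with PLEKHA6 (left) and PLEKHA7 (right); lines mark the median gene and the other members of the subfamily. PLEKHA7 falls near the median gene for PLEKHA6 (0.313 and 0.327), and PLEKHA5 lies at 0.652 for PLEKHA6 and 0.410 for PLEKHA7; with the run removed as well, PLEKHA5 is at 0.319 and PLEKHA7 at 0.349 for PLEKHA6.

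Of the 8 PLEKHA genes, 3 were listed, PLEKHA5, PLEKHA6 and PLEKHA7, all lower, where 3.39% of the 15235 genes tested were listed and 2.46% were listed as lower. PLEKHA6 and PLEKHA7 were themselves taken from this list, so the count restates that choice apart from PLEKHA5. Of 16 genes for partners at the junction, among them p120-catenin (CTNND1), PDZD11, afadin (AFDN), the nectins, CAMSAP3 and ATP7A, 0 were listed in the authors' table. The same held for 0 of 29 genes of the cadherin-catenin complex and the intercalated disc, the junction that joins cardiomyocytes end to end, and for 0 of 18 genes of tight junctions. Their values were not analysed here, and a gene missing from a list chosen by p may still have differed.

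Of 7 microRNA processing and silencing factors reported at epithelial junctions, 1 was listed, where 3.39% of all genes tested were listed. This was DDX17, an RNA helicase of the nuclear microprocessor, at 341 ± 75.6 CPM in pressure overload and 445 ± 68.1 CPM in controls (SD, n = 6 each), an overlap of groups. Its log2 difference was -0.40 ± 0.14 (SE), with -0.08 in the first run and -0.71 in the second, and it was -0.07 after median-of-ratios scaling. The authors' deposited table gives DDX17 an adjusted p of 1.0. The 7 factors are a selection, and silencing genes outside it were listed too. Among them, AGO4 had a log2 difference of -0.32 ± 0.13 (SE) and TNRC6A of -0.40 ± 0.16.

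Of 58 markers of cell types that heart tissue can hold, 2 were listed, or 3.45%, beside a background of 3.39%. None of the 9 cardiomyocyte markers was listed, so the labelled tissue could not be checked against them here. KDR, an endothelial receptor and the only listed marker of 7 for that cell type, ranged from 112 to 191 CPM in pressure overload and from 62.1 to 147 CPM in controls. MYL4, the atrial and fetal myosin light chain and 1 of 5 atrial markers, ranged from 4.76 to 17.0 CPM in pressure overload and from 12.9 to 40.0 CPM in controls. Of 10 genes of ventricular and atrial state, 2 were listed, beside the same background of 3.39%. These were MYL4 and TNNI1, a slow skeletal and fetal troponin. TNNI1 had 2.06 to 5.15 CPM in pressure overload and 7.12 to 58.6 CPM in controls. The part of these cell types in the levels of PLEKHA6 and PLEKHA7 was not tested.

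Along the chromosome, 1 of 13 annotated neighbours within 300 kb of PLEKHA6 was listed, and 0 of 6 around PLEKHA7, where 3.39% of all genes tested were listed. The listed neighbour was MDM4, an inhibitor of p53, at a distance of 148 kb. MDM4 was at 42.8 ± 11.2 CPM in pressure overload and 61.0 ± 9.79 CPM in controls (SD, n = 6 each), with 5 of 6 pressure overload libraries below the lowest control. Its log2 difference was -0.52 ± 0.16 (SE), with -0.23 in the first run, -0.81 in the second and -0.20 after median-of-ratios scaling, and the authors' deposited table gives MDM4 an adjusted p of 1.0. The window and this neighbour were chosen after the values were seen.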

How the data were processed

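Polyadenylated RNA of 12 pig heart libraries was sequenced from directional libraries, per the labels' protocols. Tools named in the submitters' processing notes are featureCounts and Subread 1.5.3, STAR 2.7.2b, Trim Galore 0.4.5 and SAMtools 1.5, with the build Sscrofa11.1. The sources used here give neither annotation nor strand setting. The authors deposited CPM per library and group, a log2 fold change and mean log2 CPM per gene, a likelihood-ratio score, and unadjusted and adjusted p-values from a generalized linear model, per the file headers. The ratio of adjusted to unadjusted p implies 15235 tested genes, of which 516 are listed.

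Library size was searched as the size at which CPM values become whole within 0.02 counts. At the size used, 78.9% of values up to 5000 were whole and 95.8% were multiples of 0.5, as fractional counting of shared reads would give. At double the size 223 of 430 genes, PLEKHA5, PLEKHA6 and PLEKHA7 among them, were even in all 12 libraries. The other 207 were not, 124 of them being even in 8 or fewer. The smaller size was taken on this ground; if the larger one were right, the read counts given would double and the CPM values would not change. Simulated libraries gave back 12 of 12 sizes. They were built from whole counts and multiples of 0.5, so they cannot decide between the smaller and the larger size. With fractional counts, no count model was fitted.

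CPM values were fitted with limma 3.58.1 (R 4.3.3, intensity trend) on log2(CPM + 1), a scale that understates changes of low genes, for 512 genes with at least 1 CPM in at least 6 libraries; the fit was tested on simulated data. Correlations used exact permutation over pairings within groups (Python 3.11.15, SciPy 1.17.1). The test of the difference between runs and the values for PLEKHA5 were added after the data were seen. The members and lists were chosen with earlier results of these data known. Named genes are the members, every listed gene of the lists, and the 5 genes most like each member. MDM4, AGO4 and TNRC6A were named after the values were seen. No 2 libraries were identical (r from 0.789 to 0.971).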

Additional observations from a re-analysis of the deposited data

Results flagged for a closer look

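DDX17 in pressure overload replicate 3 was at 486 CPM, far above the other 5 pressure overload libraries: the gap to the next library was 0.666 of the group's range, over Dixon's 95% limit for 6 samples. Of 18 groups of 6 values examined this way (PLEKHA5, PLEKHA6, PLEKHA7, DDX17, KDR, MYL4, TNNI1, MDM4 and the ratio of PLEKHA6 to PLEKHA7, in each group), this was the only library over the limit, and chance passes it in about 1 of 20 groups. MDM4 in the same library, at 64.0 CPM, lay just under the limit. For PLEKHA6 in controls, where replicate 5 stood highest, the gap was 0.417 of the range.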

How the results depend on the processing

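The log2 differences of PLEKHA6 and PLEKHA7 were below 0 in all 21 settings each. The settings reuse the libraries on which both genes were chosen, so the count is a description and not separate evidence. Among these settings, the fits with the run as covariate and with the replicate block could not change the difference, since both are balanced over the groups. Nor could the fit with no filter on low values, which only adds other genes. Leaving out 1 library gave -0.94 to -0.71 for PLEKHA6 and -0.89 to -0.67 for PLEKHA7. PLEKHA6 moved by more than the spread between libraries within S01 to S06 (-0.45) and within S10 to S15 (-1.23); the cause was not tested. PLEKHA5, whose alternatives were added after the data were seen, was at 0.042 within S01 to S06, -0.75 within S10 to S15 and -0.04 after median-of-ratios scaling. The difference of the log2 ratio of PLEKHA6 to PLEKHA7, -0.04, ranged from -0.15 to 0.14 without 1 library (0.14 without control replicate 5, 0.04 without pressure overload replicate 5 or 6) and was 0.35 within S01 to S06. The correlations passed no test in any setting. Leaving out 1 library gave r from -0.057 to 0.682 in pressure overload, -0.334 to 0.718 in controls, with -0.044 without control replicate 6, and 0.102 to 0.604 over deviations from group means. Without the 2 libraries farthest from the median of PLEKHA6 in each group, r was -0.793 in pressure overload and -0.067 over deviations. The lowest r among the 5 genes most like PLEKHA7, 0.737, was 0.525 without pressure overload replicate 4, and that of PLEKHA6, 0.846, was 0.731 without control replicate 5.

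Whether the replicate numbers of the column headers mark pairs could not be settled from the values, since the libraries of a pair need not correlate. Deviations of same-numbered libraries correlated at -0.09 to 0.233, over 0.1 in 2 of 6 pairs. Of the pressure overload libraries, 2 of 6 were closest to the control of their own number. A fit with the replicate block left the differences at -0.84 for PLEKHA6, -0.80 for PLEKHA7 and -0.04 for the log2 ratio, as it had to. Each number holds 1 library of each group, so only the standard error could move. That error went from 0.19 to 0.18 for PLEKHA6 and from 0.18 to 0.13 for PLEKHA7. Depth was not the limit for these genes, since counting error was below the spread between libraries; the number of libraries limits the correlations.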
